A study of Mus musculus with 16 samples.

Results

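The genes described here are 42 cyclins, cyclin-dependent kinases (CDKs), CDK inhibitors, pocket proteins and E2F factors, checkpoint kinases and mitosis genes, listed by symbol and read in newborn mouse inner ear. Affymetrix MG-U74Av2 chips carry a probe set with 1 of these symbols for 40 of them, 54 probe sets in all, out of 8251 genes that a single symbol names on the chip. Ccnb1 and Cdc25b had no such probe set and were not analysed here. RNA came from whole P0 inner ears of 129SvEv mice that were wild-type or COUP-TFI-/-, the latter lacking the orphan nuclear receptor Nr2f1. Each RNA pool joined tissue from several samples and was put on 2 chips. Hybridizations were done in 2 sets at different times, A and B, each with 1 pool per genotype, so that the 8 chips stand for 2 pools per genotype. The labels give no promoter or Cre for the mutation, and no treatment. The set of hybridizations and the animals in its pools cannot be told apart.

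D-type cyclins with CDK4 and cyclin E with CDK2 phosphorylate the pocket proteins Rb1 and Rbl1, which frees E2F factors to switch on genes of S phase. Cyclin B with CDK1 then drives mitosis, under the control of Wee1, the Cdc25 phosphatases and the spindle checkpoint. The Cip/Kip and Ink4 inhibitors stop the G1 kinases. In the cochlea, Cdkn1b (p27Kip1) marks the prosensory cells as they leave the cycle and later the supporting cells, Cdkn2d (p19Ink4d) helps hair cells to stay out of the cycle, and loss of Rb1 lets hair cells divide. Around the sensory epithelium of a newborn ear lie tissues that are still growing, among them cartilage, bone, nerve and muscle, and a whole ear holds them all.

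Every chip was deposited in 2 normalizations, GCRMA on a log2 scale and dChip on a linear scale, and differences below are on the log2 scale in both. The pool means were compared with limma, with genotype and set in 1 fit, and a value was called at a Benjamini-Hochberg adjusted p under 0.05 over all probe sets. A gene with several probe sets was read from the one with the highest mean GCRMA value. The COUP-TFI-/- minus wild-type difference of Nr2f1 itself was -3.37 in GCRMA and -3.47 in dChip. Duplicate chips correlated at 0.996 to 0.997 in GCRMA and at 0.993 to 0.995 in dChip. Of 15 listed hair cell genes 7 had a probe set, and of 15 supporting cell genes 12. Wild-type GCRMA means were 8.04 for Myo7a, a hair cell myosin, and 8.66 for Sox2, a factor of supporting cells. Others on these lists read lower, such as Gfi1 of hair cells at 5.21 and Prox1 of supporting cells at 4.46. Sox2 itself differed by -0.36 between genotypes, not called, and was 1.15 higher in set A.

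To show what sits upstream of these genes, the RefSeq promoter windows of GRCm38.p6 were searched on both strands, 250 bases before and 50 after each start. The windows of a chromosome were left out of the search, so a gene without a window here may have one in RefSeq. A window was found for 32 of the 42 listed genes, 37 windows in all. The CHR element, which late cell cycle genes use, was spelled TTTGAA or TTCGAA. It was in 11 of 13 windows of the S phase and mitosis genes, or 84.6%, against 19.2% of all 32851 windows searched. The CCAAT box was in 92.3% of the same windows and in 37.4% of all. An E2F word (TTTCCCGC, TTTGGCGC, TTTCGCGC or TTTGCCGC) was in 7.69%, against 2.26% of all. Of the 8 windows of the G1 kinase inhibitors, 12.5% held a CHR and 62.5% a CCAAT box. The half-site AGGTCA, which nuclear receptors of the COUP-TF kind can bind, was in 21.6% of the members' windows and in 16.3% of all windows. Each motif was counted on its own, whether or not its match overlapped another, and a match is a description of letters and not of binding. Below are the 250 bases before the start of the inhibitor Cdk2ap1, the member with the lowest genotype p in GCRMA, and of the mitosis genes Mki67, Cdk1 and Mad2l1, which differed between the sets, Cdk1 in the opposite direction from the others. They lie at chr5:124354629-124354878 (minus strand), chr7:135716380-135716629 (minus), chr10:69352913-69353162 (minus) and chr6:66534971-66535220 (plus), and capitals mark the words searched, on either strand.
Cdk2ap1: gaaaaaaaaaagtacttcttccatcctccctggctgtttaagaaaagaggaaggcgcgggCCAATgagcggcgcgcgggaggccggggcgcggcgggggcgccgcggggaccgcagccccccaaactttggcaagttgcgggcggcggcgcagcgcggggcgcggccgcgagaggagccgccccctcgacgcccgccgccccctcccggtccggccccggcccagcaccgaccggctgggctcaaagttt
Mki67: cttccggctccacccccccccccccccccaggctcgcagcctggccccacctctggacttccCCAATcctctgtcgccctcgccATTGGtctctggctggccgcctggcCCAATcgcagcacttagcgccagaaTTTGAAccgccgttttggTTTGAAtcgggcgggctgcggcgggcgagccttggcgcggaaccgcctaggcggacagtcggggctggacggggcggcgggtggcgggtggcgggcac
Cdk1: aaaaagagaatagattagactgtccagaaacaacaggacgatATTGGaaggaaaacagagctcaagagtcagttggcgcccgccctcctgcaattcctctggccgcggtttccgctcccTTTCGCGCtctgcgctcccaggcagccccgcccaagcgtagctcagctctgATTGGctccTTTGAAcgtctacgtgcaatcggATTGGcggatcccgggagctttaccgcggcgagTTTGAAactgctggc
Mad2l1: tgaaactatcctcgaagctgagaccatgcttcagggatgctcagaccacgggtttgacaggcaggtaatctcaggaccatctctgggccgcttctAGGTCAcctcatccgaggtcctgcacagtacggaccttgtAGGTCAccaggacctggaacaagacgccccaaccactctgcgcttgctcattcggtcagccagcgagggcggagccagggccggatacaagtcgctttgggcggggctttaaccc

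Counted back from the start, Mki67 has CHR words beginning at -116 and -98, with CCAAT boxes at -188, -166 and -141. Cdk1 has CHR words at -71 and -15 and an E2F word at -131. Mad2l1 has none of these and holds 2 AGGTCA half-sites, at -155 and -115. The only word in the Cdk2ap1 window is a CCAAT box at -190, with no AGGTCA.

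No cell cycle gene was called between the genotypes. None of the 40 passed in GCRMA, where 0.105% of all 12422 probe sets did, and none in dChip, where 0.00805% did. At an unadjusted p under 0.05, the count was 1 of 40 in each normalization, beside 4.58% of all probe sets in GCRMA and 2.13% in dChip, and it was Cdk2ap1 both times. The median GCRMA difference of COUP-TFI-/- from wild-type was -0.01 over the members and 0.0008 over all probe sets, with 24 members lower and 16 higher. In dChip the medians were -0.04 and -0.0089. The direction matched between the normalizations for 30 of 40 members. In these bulk samples, fewer cells of a type and less RNA per cell cannot be told apart. The members' 95% intervals reached 0.202 to 0.229 to either side in GCRMA and 0.253 to 0.426 in dChip, so changes well under these sizes were not detectable with 2 pools per genotype. These intervals are not adjusted for the number of probe sets. The smallest difference that passed anywhere on the chip was 0.58 in size in GCRMA. In dChip it was 3.47, that of Nr2f1, the only probe set called there.

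**Figure D1:**
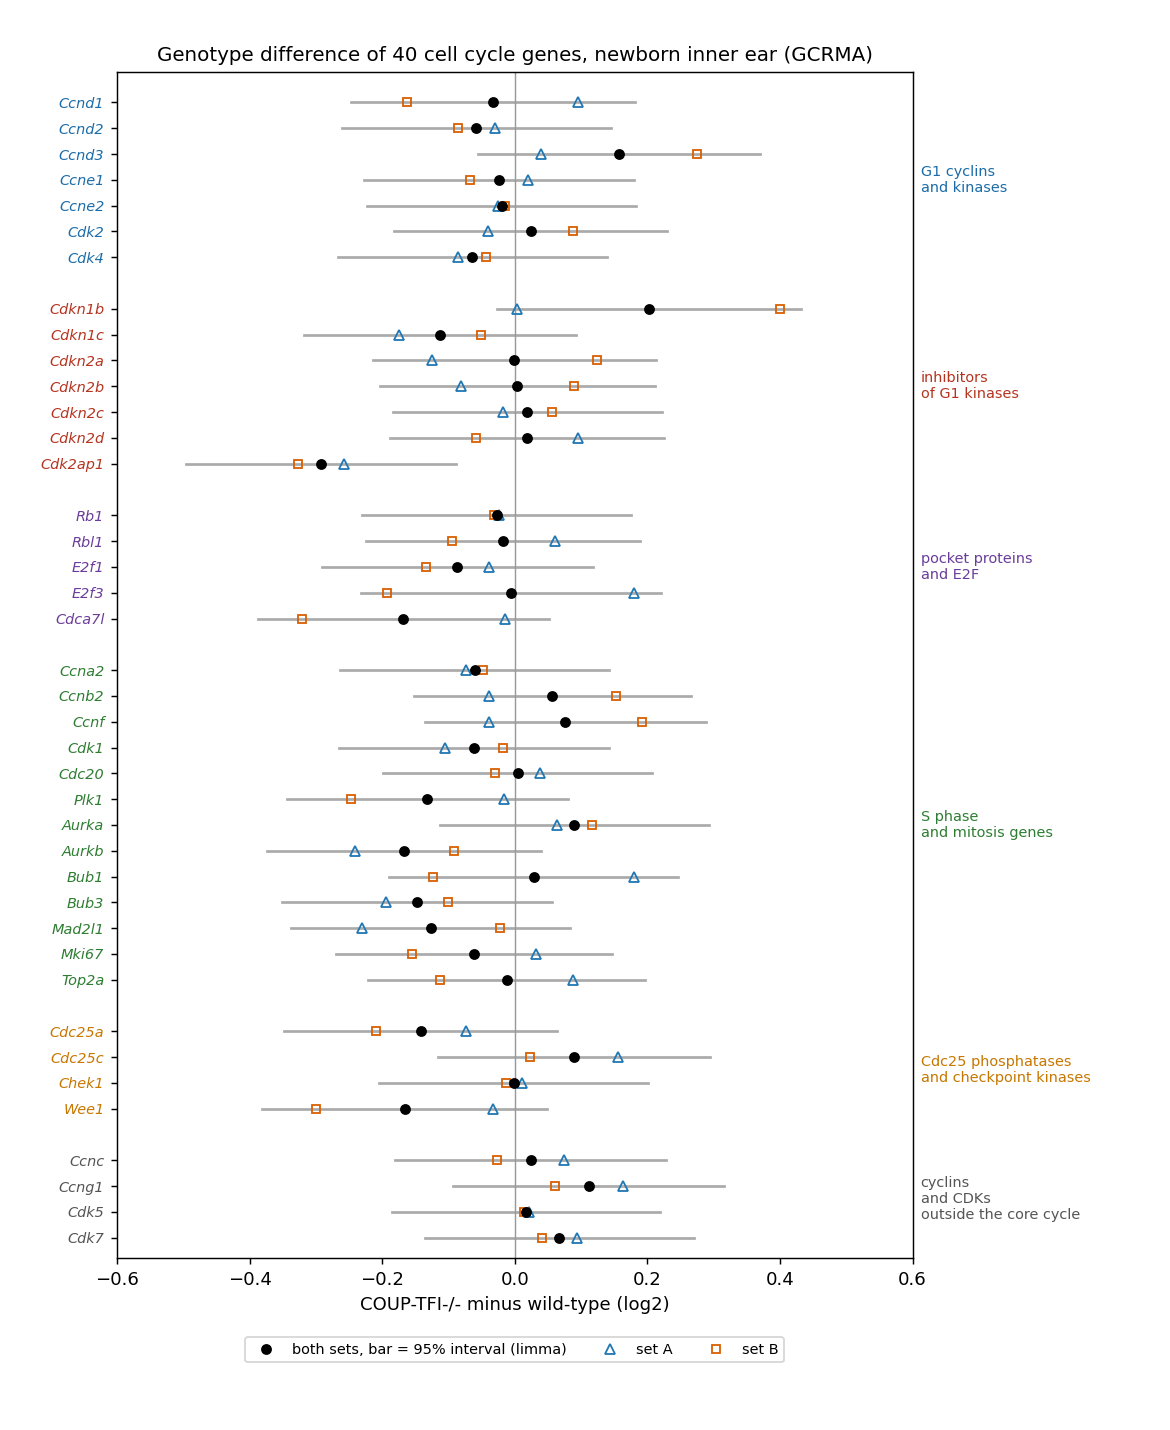
Genotype difference of each of the 40 genes in GCRMA, as the log2 value in COUP-TFI-/- less that in wild-type, with the 95% interval from limma (bar), and the difference within set A (triangle) and set B (square). The intervals of 39 genes cross 0, and that of Cdk2ap1 runs from -0.50 to -0.09.

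Cdk2ap1, which binds CDK2 and restrains S phase, had the clearest difference of the inhibitors. Its GCRMA values on wild-type chips A1, A2, B1 and B2 were 10.12, 10.08, 10.40 and 10.35, and on the COUP-TFI-/- chips 9.87, 9.81, 9.96 and 10.13. Within each set both COUP-TFI-/- chips lay below both wild-type chips, while over both sets the ranges met, since COUP-TFI-/- chip B2 was above wild-type chip A2. The difference was -0.29 (95% interval -0.50 to -0.09), with -0.26 in set A and -0.33 in set B, a ratio of 0.817. In limma its unadjusted p was 0.00783 and its adjusted p 0.71, so it did not pass. A 2-way analysis of variance of the chips, without adjustment, gave Cdk2ap1 a genotype p of 0.0035 in GCRMA and 0.0032 in dChip. The interaction p from that analysis was 0.50 and 0.19. The paper picked its hits by such unadjusted values with a cutoff of 0.01, low for genotype and high for interaction. Cdk2ap1 meets that rule in both normalizations, though these p-values rest on the spread of duplicates. In dChip the wild-type chips read 1223, 1205, 1637 and 1722 and the COUP-TFI-/- chips 1037, 1045, 1224 and 1378. Within each set the COUP-TFI-/- chips were again the lower ones in dChip, and the difference there was -0.30 (unadjusted p = 0.0345 in limma). When the 8 chips were taken as separate samples with an interaction term, the adjusted p in GCRMA was 0.0392, and over the other alternatives it ran from 0.115 to 1.00. Beside it, the summed dChip level of 10 macrophage genes was 6063 to 6643 on wild-type and 6736 to 7137 on COUP-TFI-/- chips. For 7 bone genes it was 21598 to 23652 and 23924 to 25017. The sums of the other lists of cell type markers overlapped between the genotypes. Among these were 12 supporting cell genes, at 5087 to 6359 and 4212 to 5496, and 10 Schwann cell genes, at 10847.1 to 11481 and 9850 to 10847.4. The lowest dChip value of any gene on any chip was 72.7 for macrophages, 80.2 for bone, 64.0 for supporting cells and 98.8 for Schwann cells. None was at 0, and the part of these cells in the Cdk2ap1 values was not tested.

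No inhibitor was called, and the median GCRMA difference of the 7 was 0.0036, with -0.08 in set A and 0.06 in set B. Cdkn1b had the widest gap between the sets. It read 6.56, 6.69, 6.004 and 6.26 on wild-type chips A1, A2, B1 and B2 and 6.75, 6.51, 6.54 and 6.52 on the COUP-TFI-/- chips. The 2 wild-type chips of set B were the lowest, and in set A the genotypes overlapped. COUP-TFI-/- differed from wild-type by 0.0036 in set A and by 0.40 in set B, or 0.20 over both (95% interval -0.03 to 0.43), and dChip gave -0.07 and 0.51. A second Cdkn1b probe set, of low level at 3.63 to 3.91 in GCRMA, differed by -0.0074 there and by 0.17 in dChip. Cdkn2a, which encodes p16Ink4a and p19Arf, read 6.98, 7.11, 7.03 and 7.27 in wild-type and 6.87, 6.97, 7.22 and 7.32 in COUP-TFI-/-. Its GCRMA difference was -0.13 within set A but 0.12 within set B, while dChip had a higher COUP-TFI-/- mean in both sets, by 0.05 and 0.27.

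Cdkn2d, the Ink4 inhibitor of hair cells, differed by 0.10 in set A and -0.06 in set B from a wild-type GCRMA mean of 8.81. Cdkn2c, its p18 relative, had a wild-type mean of 7.61 and a difference of 0.02. Cdkn1c (p57Kip2), an imprinted growth restraint of embryonic tissues, had 12.45 and -0.11 and was lower in both sets in GCRMA. In dChip its difference was 0.0016, with -0.08 in set A and 0.08 in set B, where both COUP-TFI-/- chips were the higher ones. Cdkn2b (p15Ink4b) depended on the normalization. Its dChip values were 141, 142, 272 and 280.0 in wild-type and 134, 164, 176 and 193 in COUP-TFI-/-, and in set B both COUP-TFI-/- chips were below both wild-type chips by 0.58 on the log2 scale. In GCRMA the same gene was 0.09 higher in COUP-TFI-/- in set B.

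Among the G1 cyclins and kinases, 5 of 7 were lower and 2 higher in COUP-TFI-/-, with a median of -0.02 and none called. Cyclin D1 (Ccnd1) had 0.10 in set A and -0.16 in set B. A second Ccnd1 probe set went the other way in set B, with -0.0001 in set A and 0.09 in set B. In dChip that probe set had -0.05 and 0.10. Cyclin D3 (Ccnd3), the member of this group with the largest genotype value, had 0.04 in set A and 0.27 in set B in GCRMA. In set B its COUP-TFI-/- chips, at 10.30 and 10.46, were above the wild-type chips at 10.20 and 10.001, and in set A the genotypes overlapped. Ccnd2, Ccne1, Ccne2, Cdk2 and Cdk4 lay between -0.06 and 0.02. Ccne2 read 3.55 to 3.73 on all chips in GCRMA and 12 to 20 in dChip, and its genotypes and sets overlapped. Beside the set B values of Cdkn1b and Ccnd3 stand those of striated muscle markers. Of 20 such genes 19 were higher in COUP-TFI-/- in GCRMA, 14 at an unadjusted p under 0.05 in limma and 2 called, with a median of 0.37. Within set A the median was 0.02, and within set B 0.79. Their summed dChip level was 20463 to 30335 on wild-type and 28618 to 35702 on COUP-TFI-/- chips, with 15.0 as the lowest value of any gene on any chip, and the part of muscle in the set B values of the cell cycle genes was not tested.

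The group of pocket proteins, E2F factors and Cdca7l had a negative GCRMA difference in 5 of 5 genes, from -0.17 for Cdca7l to -0.0060 for E2f3. Of these, 3 were lower in both sets. In dChip 4 of 5 were lower. Over all probe sets, 6170 of 12422 were lower in GCRMA and 6673 of 12421 in dChip. None of the 5 was called in limma. The paper ranks Cdca7l among its candidate targets, partly by genotype p-values from these same chips, so its direction here is not separate evidence. Rb1, the retinoblastoma protein gene, differed by -0.02 in set A and -0.03 in set B in GCRMA. In dChip it was the higher gene of the group, by 0.07 in set A and 0.08 in set B. Cdca7l, a nuclear protein that binds Myc, read 8.08, 7.99, 7.89 and 8.00 on wild-type and 8.05, 8.01, 7.63 and 7.62 on COUP-TFI-/- chips. In set B the COUP-TFI-/- chips were below the wild-type ones, by 0.32, and in set A the genotypes overlapped. E2f1 had -0.04 in set A and -0.13 in set B in GCRMA, and 0.07 and -0.35 in dChip. A second E2f1 probe set had 0.11 and -0.21 in GCRMA, and 0.06 and -0.52 in dChip. Rbl1 had 0.06 in set A and -0.09 in set B in GCRMA, and -0.17 and -0.05 in dChip. E2f3, an activating E2F, had 0.18 in set A and -0.19 in set B. Its interaction of genotype with set had an adjusted p of 0.14 in the limma fit of 8 chips.

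Of the 13 S phase and mitosis genes, 8 were lower and 5 higher, with a median of -0.06, 0 calls and 0 genes at an unadjusted p under 0.05 in limma in either normalization. With every probe set of these genes the median was 0.0042. In GCRMA the 2 most negative were Aurkb, the kinase of the chromosomal passenger complex, at -0.17 (-0.24 in set A, -0.09 in set B), and Bub3, a spindle checkpoint protein, at -0.15. A second Bub3 probe set differed by -0.02. In set A the COUP-TFI-/- chips of Aurkb, 8.21 and 8.31, were below the wild-type chips, 8.49 and 8.50. In set B they were 8.32 and 8.35 against 8.47 and 8.39, again lower on both chips. In dChip the Aurkb difference was -0.07, with 0.05 in set B. Aurka, which builds the spindle poles, had 0.09 and the cyclin F gene Ccnf 0.08. Of the common markers of proliferation, Mki67 had -0.06, Top2a, the topoisomerase that untangles sister chromatids, -0.01, Ccna2, the S phase cyclin, -0.06, and Cdk1 -0.06. Cdc20, which activates the anaphase-promoting complex, had 0.0042, Bub1 0.03, Ccnb2 0.06, Mad2l1 -0.13 and Plk1, the polo kinase of mitotic entry, -0.13. The other Plk1 probe sets had 0.02 and 0.05 in GCRMA. In dChip Plk1 was the most negative of the 13, at -0.23 (-0.0086 in set A, -0.44 in set B).

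**Figure D2:**
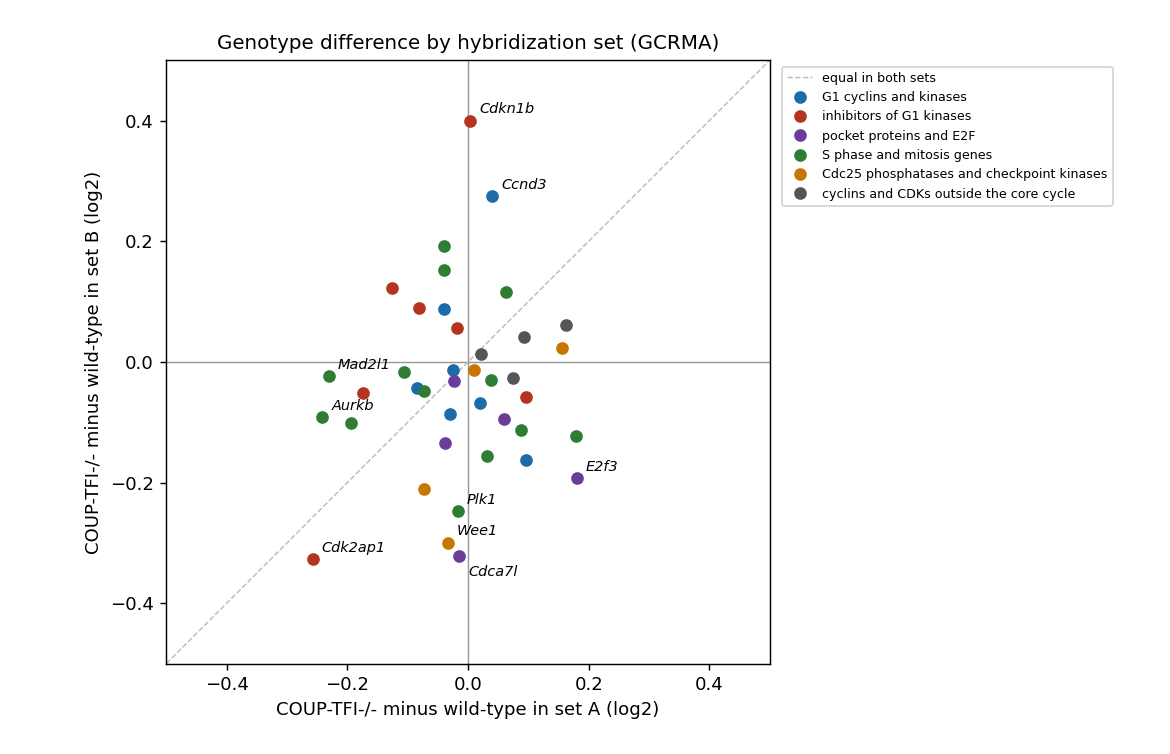
Each point is 1 gene, placed by its GCRMA difference (COUP-TFI-/- minus wild-type, log2) in set A on the horizontal and in set B on the vertical axis, with colours for the groups of genes. Cdk2ap1 is lower in both sets at -0.26 and -0.33, while Cdkn1b at 0.0036 and 0.40 and Cdca7l at -0.01 and -0.32 lie far from the dashed line of equal values.

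In the last groups, Wee1, the kinase that holds CDK1 inactive, had -0.03 in set A and -0.30 in set B. Cdc25a, a phosphatase that activates CDKs, had -0.07 and -0.21. Cdc25c had 0.09 in GCRMA and -0.06 in dChip, and a second probe set of it had 0.20 and 0.17. The checkpoint kinase gene Chek1 had -0.0016 in GCRMA. In the same normalization the genes outside the core cycle all had small positive values. These were Ccnc of the Mediator kinase module with 0.02, Ccng1, a p53 target, with 0.11, Cdk5, a kinase of neurons, with 0.02 and Cdk7, the CDK-activating kinase, with 0.07.

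Over the 40 genes, 16 were lower in COUP-TFI-/- in both sets in GCRMA, 7 were higher in both, and 17 had opposite signs in the sets. In dChip the counts were 8, 7 and 25. Over all probe sets they were 2659, 3009 and 6754 in GCRMA and 2813, 2615 and 6991 in dChip. The interaction of genotype with set passed for 0 of 40 genes in GCRMA (0.958% of all probe sets) and for 0 of 40 in dChip (0.459%), with limma on 8 chips, whose p-values rest on the spread of duplicates. The lowest adjusted p among the members was 0.0765, for Cdkn2b in dChip. At unadjusted p-values of 0.00602 in GCRMA and 0.00607 in dChip, E2f3 was low in both.

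Other genes of the same machinery were read from longer lists. Of 100 further cell cycle genes, 72 were on the chip, 0 passed and 3 had an unadjusted p under 0.05 in GCRMA, with 44 lower and 28 higher in COUP-TFI-/- and a median of -0.03. These 3, named after their values were seen, were the transcription factor Myc (0.27), the pocket protein Rbl2 (0.23) and the histone variant H2az1 (-0.24). Of 38 DNA replication genes, 34 were on the chip and 0 passed. In this list 30 were lower and 4 higher in GCRMA, with a median of -0.05, and 26 lower and 8 higher in dChip, with a median of -0.05, where over all probe sets 6170 of 12422 and 6673 of 12421 were lower. At an unadjusted p under 0.05 were Mcm5, a subunit of the replicative helicase (-0.26), Pcna, the sliding clamp (-0.26), and Fen1, the flap nuclease (-0.25), also named after their values were seen. In dChip the unadjusted p was under 0.05 for 1 gene of each list, Rbl2 (0.31) and Fen1 (-0.27).

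The sets of hybridizations differed more than the genotypes did. The median size of the difference, whatever its sign, was 0.19 between sets and 0.06 between genotypes over the members in GCRMA, as against 0.16 and 0.06 over all probe sets. In GCRMA 9 of 40 genes were called higher in set A, beside 13.6% of all probe sets, and 4 of 40 lower in set A, beside 12.2%. In dChip 3 of 40 were called higher in set A (6.76% of all probe sets) and 0 of 40 lower (4.90%). Mki67 and Wee1 passed in both normalizations, 11 genes in GCRMA alone and Ccnb2 in dChip alone. With dChip values under 16 set to 16, 0 of the 40 were called in dChip. In GCRMA the calls of Ccnd3, Rb1, Mad2l1, Chek1 and Ccng1 were lost in a 2-way analysis of variance across all probe sets, and those of Ccnd3 and Cdk2 after quantile normalization. The direction matched in 28 of 40.

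**Figure D3:**
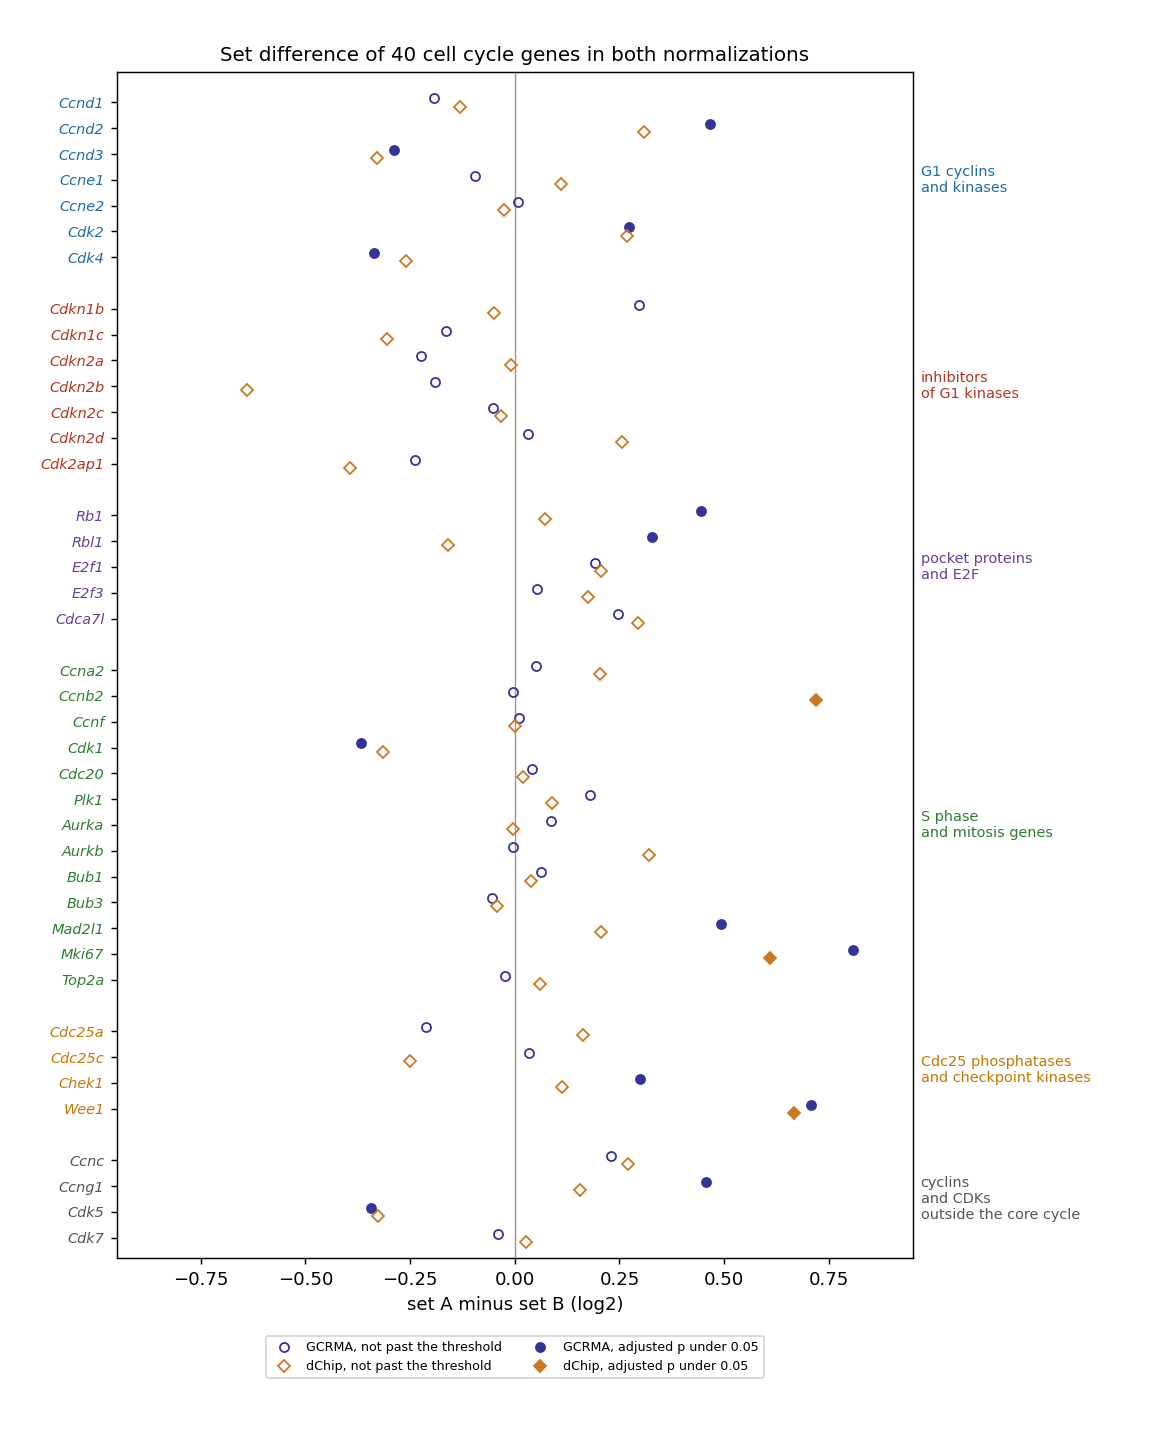
Difference of set A from set B for each of the 40 genes on the log2 scale, in GCRMA (circles) and dChip (diamonds), with filled marks for an adjusted p under 0.05 in limma. Mki67 and Wee1 are filled in both normalizations, at 0.81 and 0.71 in GCRMA and 0.61 and 0.67 in dChip.

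Mki67, the antigen of cycling cells, had the largest set difference of the members in GCRMA. Here and below the values of a set run from the wild-type to the COUP-TFI-/- chips. Its values were 7.54 and 7.50 on wild-type and 7.51 and 7.59 on COUP-TFI-/- chips of set A, while set B gave 6.87 and 6.74 on wild-type and 6.61 and 6.69 on COUP-TFI-/- chips. All chips of set A were above all chips of set B, by 0.81 (95% interval 0.60 to 1.02, adjusted p = 3.0e-05 in limma), a ratio of 1.75. A second Mki67 probe set, one of Affymetrix's r type with relaxed probe selection, differed by 0.13 and did not pass in GCRMA, while in dChip it was 0.78 higher in set A and called (adjusted p = 0.0156 in limma). Wee1 read 6.98 and 7.05 on wild-type and 6.91 and 7.05 on COUP-TFI-/- chips of set A, and 6.36, 6.51, 6.13 and 6.15 in set B. Again the sets were apart, by 0.71 (adjusted p = 1.3e-04 in limma). Mad2l1, a spindle checkpoint protein, read 8.77, 9.07, 8.63 and 8.75 on the chips of set A and 8.23, 8.42, 8.02 and 8.59 on those of set B. It was 0.49 higher in set A in GCRMA, with no overlap, while its dChip values overlapped and differed by 0.21 (adjusted p = 0.25 in limma).

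Cdk1, the mitotic kinase, ran the other way from Mki67. It read 8.58 and 8.70 on wild-type and 8.56 and 8.51 on COUP-TFI-/- chips of set A, while the chips of set B gave 8.98, 8.95, 8.96 and 8.93. Every chip of set A was lower, by 0.37 on average (adjusted p = 0.0108 in limma), and dChip gave -0.31 with no overlap and no call. The remaining mitosis genes showed no GCRMA call. Ccnb2, the B-type cyclin measured here, had -0.0032 in GCRMA and 0.72 in dChip, where it read 1805, 1727, 1551 and 1774 on the chips of set A and 968, 891, 1144 and 1182 on those of set B. Of the 13 mitosis genes, 8 were higher and 5 lower in set A in GCRMA, with a median of 0.04.

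Of the G1 genes, Ccnd2 was 0.47 higher in set A, with 8.60, 8.53, 8.49 and 8.58 there and 8.07, 8.19, 8.26 and 7.83 in set B. Cdk4 was 0.34 lower, with 10.65, 10.70, 10.62 and 10.56 on the chips of set A and 10.98, 11.01, 10.91 and 10.98 on those of set B. For both, the sets did not overlap, and a second Cdk4 probe set was called too, at -0.29. Ccnd1 had -0.19 and was not called, while its second probe set was called lower in set A in both normalizations, at -0.36 in GCRMA and -0.47 in dChip. Ccnd3 was 0.29 lower in set A, with 9.86, 10.002, 9.91 and 10.04 there and 10.20, 10.001, 10.30 and 10.46 in set B, where wild-type chip B2 lay among the chips of set A. Its call (adjusted p = 0.0451 in limma) was lost without wild-type chip A1 or B1 or COUP-TFI-/- chip A1 or B2, with adjusted p-values up to 0.183. Cdk2 was 0.27 higher at an adjusted p of 0.0489 in limma, with a second probe set at -0.13, and its call was lost whichever chip was left out (adjusted p up to 0.1097).

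Of the pocket proteins, Rb1 read 5.89, 6.02, 5.84 and 6.02 on the chips of set A and 5.35, 5.67, 5.27 and 5.70 on those of set B. The sets were apart by 0.44, and by 0.42 in a second probe set, both called in GCRMA. In dChip the first had 0.07 and was not called, and the second had 1.11 and was called (adjusted p = 0.00689 in limma). This second probe set is of Affymetrix's f type, whose probes may read related transcripts. Its level was low, at 3.68 to 4.34 in GCRMA and 21 to 57 in dChip, so its value is uncertain. Rbl1 (p107) read 6.78, 6.81, 6.89 and 6.82 on the chips of set A and 6.55, 6.54, 6.34 and 6.57 on those of set B, a difference of 0.33 in GCRMA and of -0.16 in dChip. For Rbl1 the direction turned with the normalization, and the GCRMA call was lost without wild-type chip B1 or COUP-TFI-/- chip A1 or B1 (adjusted p up to 0.0653). None of the 7 inhibitors was called between sets. The largest GCRMA values were 0.30 for Cdkn1b, -0.24 for Cdk2ap1 and -0.22 for Cdkn2a, and in dChip Cdkn2b had -0.64 (adjusted p = 0.068 in limma).

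In the checkpoint group, Chek1 was 0.30 higher in set A, with 6.30, 6.35, 6.34 and 6.33 there and 6.21, 5.87, 6.17 and 5.88 in set B, which did not overlap. That call was lost without wild-type chip A2 or B2 or COUP-TFI-/- chip A1 or B2 (adjusted p up to 0.132 in limma). Cdc25a was 0.21 lower, at 8.33, 8.22, 8.10 and 8.30 against 8.54, 8.57, 8.34 and 8.35, and was not called. Outside the core cycle, Ccng1 was 0.46 higher in set A, with 7.85, 7.89, 8.11 and 7.96 there and 7.65, 7.28, 7.37 and 7.69 in set B. Cdk5 was 0.34 lower, with 8.28, 8.39, 8.44 and 8.28 on the chips of set A and 8.74, 8.62, 8.72 and 8.67 on those of set B. Neither gene's sets overlapped, and the call of Cdk5 was lost without wild-type chip B1 (adjusted p = 0.0587 in limma). Ccnc read 6.53, 6.73, 6.75 and 6.66 on the chips of set A and 6.44, 6.46, 6.35 and 6.50 on those of set B, a difference of 0.23 that was not called.

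**Figure D4:**
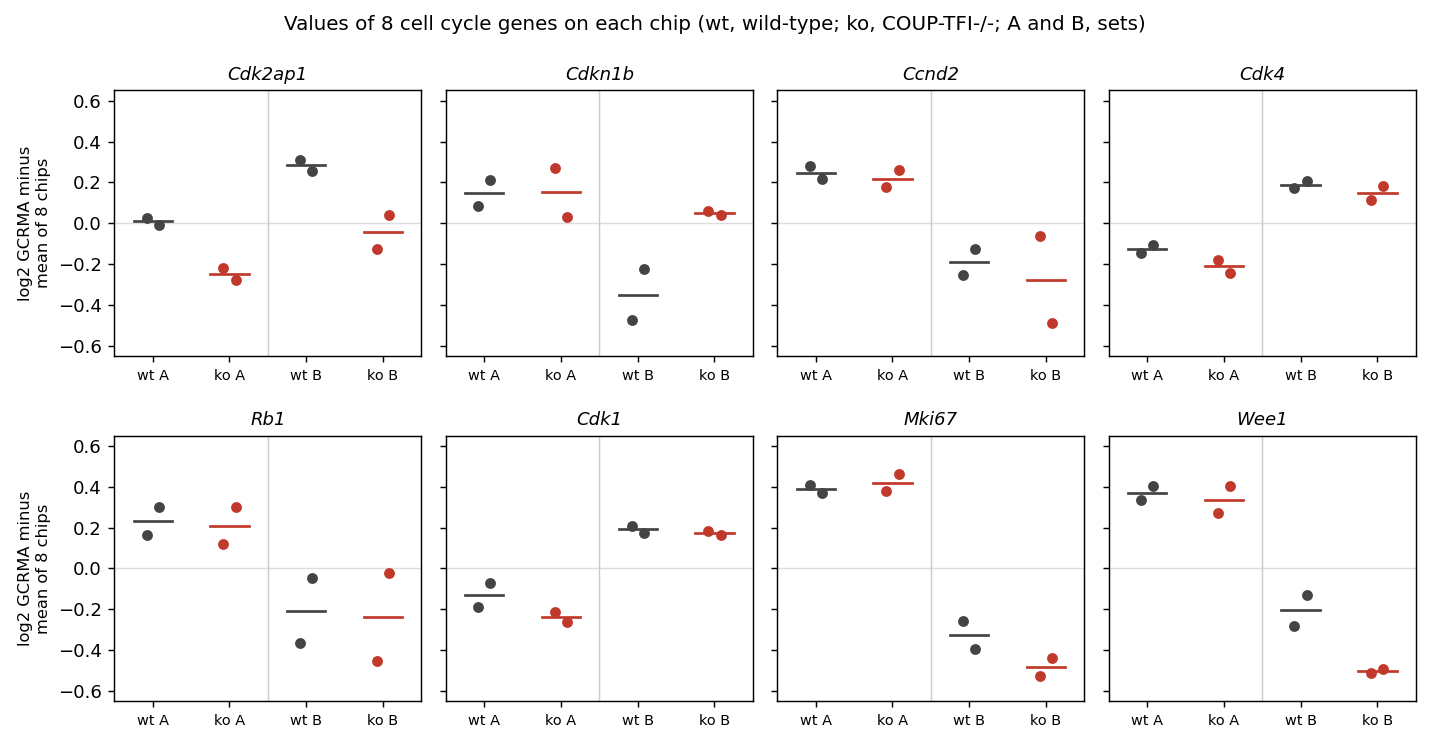
GCRMA values of 8 genes on each chip, as the log2 difference from that gene's mean over the 8 chips, with points for the 2 chips of a pool and a line for their mean. Cdk2ap1 is lower in COUP-TFI-/- (ko) in each set, while Mki67 and Wee1 are higher and Cdk4 and Cdk1 lower in set A in both genotypes.

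In GCRMA, probe sets of 1 gene did not always give the sets the same order. Of 12 genes with several, 7 had the same direction in all and 5 did not, namely Cdk2, E2f1, Plk1, Bub1 and Bub3. The 3 Plk1 probe sets ran from -0.44 to 0.18, and the one used above, with the highest level, is of Affymetrix's f type, whose probes may read related transcripts, so its value is uncertain. Bub3 had -0.05 and 0.42. The Plk1 probe sets at -0.44, also of the f type, and at -0.31 were called lower in set A in GCRMA. The Bub3 probe set at 0.42 was called higher there. With any probe set of a gene counted, 16 genes were called between sets in GCRMA and 7 in dChip. Several probe sets per gene can raise such a count, and its share over all genes was not computed. Of the 54 member probe sets, 35.2% were called between sets in GCRMA and 14.8% in dChip, beside 25.8% and 11.7% of all probe sets.

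Markers of other tissues differed between the sets as well. In GCRMA 9 of 12 cartilage genes were called lower in set A, and their summed dChip level was 25049.5 to 26941 in set A and 39624 to 44797 in set B. Of 15 neuron genes, 11 were called higher in set A, with sums of 9945 to 10876 against 7964 to 8983. The sums of 8 erythroid genes were 33509 to 35379.8 against 26796 to 28319, and those of the 12 supporting cell genes 5465 to 6359 against 4212 to 5153. The part of these tissues in the set differences of the cell cycle genes was not tested.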

How the data were processed

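RNA of newborn whole inner ears was read on 8 MG-U74Av2 chips. The authors deposited each chip as log2 values made with GCRMA and as model-based intensity values on a linear scale made with dChip, and all 16 columns were used. Software versions and the raw probe signals are not given in the sources used here, so the steps from probe signal to probe set value are the authors' own. Leaving aside 66 Affymetrix controls, the 12488 probe sets gave 12422 to test in GCRMA and 12421 in dChip, where 1 had a missing value. For log2, 89 dChip values below 1 were raised to 1. Symbols came from the platform annotation (10833 probe sets with 1 symbol, 396 with several, 1193 with none). The members and the lists were chosen with earlier results of these data known.

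Duplicate chips were averaged to 4 pool means and tested with limma 3.58.1 (R 4.3.3, statmod 1.5.0), with genotype and set as terms, 2-sided and with Benjamini-Hochberg adjustment over all probe sets. This leaves 1 residual degree of freedom, to which the limma prior contributed 14.3 (GCRMA) or 4.55 (dChip). Interaction was fitted on the 8 chips, where p-values measure only the spread between duplicates. The number of arrays limits the precision. The sets pair the pools by the labels, and set differences in wild-type and in COUP-TFI-/- correlated at 0.752 in GCRMA and 0.688 in dChip across probe sets. Numbers of duplicates do not pair pools.

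Every member is accounted for, and values per chip are given for members with an unadjusted genotype p under 0.05 and for up to 3 members of each group with the largest set difference in GCRMA. A few more were given after their values were seen, among them the dChip values of Cdkn2b and Ccnb2. Other cell cycle and replication genes were to be named past the adjusted threshold or at an unadjusted p under 0.01, which none reached. Marker lists are given by counts and sums. Alternatives were other fits, quantile normalization, filters, another floor, a variance trend and leaving out each chip. The scripts were tested on simulated data.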

Additional observations from a re-analysis of the deposited data

Results flagged for a closer look

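In 160 groups of 4 chips (40 genes, both genotypes and both normalizations), 2 held a chip far from the other chips of its genotype. The cutoff gives about 1 in 20 groups for 4 independent values of a single distribution. Each group here is made of duplicate chips of 2 pools, so that rate does not hold for it. Cdkn1b in GCRMA read 6.75 on COUP-TFI-/- chip A1 and 6.51 to 6.54 on the other COUP-TFI-/- chips. Top2a in dChip read 271 on wild-type chip B1 and 241 to 245 on the other wild-type chips.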

How the results depend on the processing

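Without a replicate block for the set, and with the full replicate label as a replicate block, 0 members were called between genotypes in both normalizations. With the 8 chips as separate samples 1 was called in GCRMA (Cdk2ap1). Between sets in GCRMA, where 13 were called, 24 passed with 8 separate chips, 21 with the pool as a random block, 12 in the 2-way analysis of variance and 9 to 13 without 1 chip. In dChip, where 3 were called, there were 19 with 8 separate chips, 15 in the 2-way analysis of variance, 16 with the random block, 5 after quantile normalization, 8 without the probe sets of lowest level, 10 with a variance trend, 0 with a floor of 16, 7 with any probe set (an alternative chosen after seeing the data) and 1 to 5 without 1 chip, the 5 without COUP-TFI-/- chip A2 or B1 and the 1 without COUP-TFI-/- chip B2. The cause was not tested. The set call of Cdk2 was lost whichever chip was left out (adjusted p 0.0513 to 0.1097 in limma), that of Ccnd3 without wild-type A1 or B1 or COUP-TFI-/- A1 or B2, that of Rbl1 without wild-type B1 or COUP-TFI-/- A1 or B1, that of Chek1 without wild-type A2 or B2 or COUP-TFI-/- A1 or B2 and that of Cdk5 without wild-type B1, and those of Ccnd3, Rb1, Mad2l1, Chek1 and Ccng1 in the 2-way analysis of variance and those of Ccnd3 and Cdk2 after quantile normalization. The median genotype difference of the mitosis genes was -0.0605, and it was -0.0518 in dChip, 0.0042 over all their probe sets, -0.0395 in set A, -0.0482 in set B and -0.0562 to -0.0193 without 1 chip. The interaction, whose alternatives were also chosen after seeing the data, had 0 calls in each. Of 814 values of single members under these alternatives, 740 kept direction and side of the threshold, 27 lost the call, 1 gained it and 46, none of them called, changed sign. With 2 pools per genotype, differences of the members under about 0.2 in GCRMA and 0.3 in dChip could not be told from 0 even without adjustment. After adjustment the smallest difference called anywhere on the chip was 0.58 in size in GCRMA and 3.47 in dChip.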
